A study of Caenorhabditis elegans with 2 samples.

Results

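The calmodulin and calcium signalling genes described here are 8 protein-coding genes of Caenorhabditis elegans, cmd-1, cmk-1, ckk-1, tax-6, cnb-1, unc-43, itr-1 and sca-1, out of 19973 nuclear protein-coding genes. They were chosen by name with the deposited peak signals already known, above all the high peak upstream of cmd-1, so their peak heights are given as a description and carry no test. The data are ChIP-seq of RNT-1, the RUNX transcription factor of the worm, in whole hermaphrodites at the late embryonic stage, taken 5 hours after synchronization by egg bleaching. Both biological replicates, with 1 library each, came from strain OP462, genotype unc-119(tm4063) III; wgIs462, which carries the RNT-1 GFP-FLAG fusion as an inserted transgene, and the fusion was precipitated with an antibody against GFP. All samples form 1 group with no second genotype, stage or treatment. Signal from whole animals joins all cell types, so the cells in which RNT-1 lay at a gene cannot be told apart.

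Calcium ions carry signals in muscle, neurons, gland and epidermal cells. Calmodulin, the product of cmd-1, binds calcium and then switches on kinases and a phosphatase. The kinases are CaMKI, encoded by cmk-1, its activating kinase CaMKK, encoded by ckk-1, and CaMKII, encoded by unc-43. The phosphatase is calcineurin, with its catalytic subunit encoded by tax-6 and its calcium-binding regulatory subunit by cnb-1. The calcium itself is released from the endoplasmic reticulum through the IP3 receptor, encoded by itr-1, and pumped back by the SERCA ATPase, encoded by sca-1. RUNX proteins recognize the DNA words TGTGGT and TGCGGT, called the core below.

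The search covered each gene from 6 kb upstream of its outermost annotated start to its end. The list that passed the irreproducible discovery rate (IDR), a measure of agreement between replicates, held 1931 peaks, which were the 1931 strongest of 19793 regions called on both replicates together (the pooled list, background regions included). A peak's signal is the authors' score, with no stated scale, and is compared only within a list. The IDR list ran from 1809 down to 95.8 with a median of 138. The lists of replicate 1 and replicate 2 held 18427 and 21390 regions. All positions are on ce11 (WBcel235), and read depth is unknown from these files.

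The distal peak upstream of cmd-1 stood far above every other region at the 8 genes. It lay at chrV:1151323-1151739 with its summit 4776 bp upstream of the outermost cmd-1 start, and its signal of 528 was rank 14 of the IDR list. The sequence around it is shown because it is the strongest peak of the group and because the core is beside its summit and not under it. Capitals mark the core on either strand, and the 300 bases run along the strand of cmd-1 at chrV:1151346-1151645.
cmd-1 distal peak: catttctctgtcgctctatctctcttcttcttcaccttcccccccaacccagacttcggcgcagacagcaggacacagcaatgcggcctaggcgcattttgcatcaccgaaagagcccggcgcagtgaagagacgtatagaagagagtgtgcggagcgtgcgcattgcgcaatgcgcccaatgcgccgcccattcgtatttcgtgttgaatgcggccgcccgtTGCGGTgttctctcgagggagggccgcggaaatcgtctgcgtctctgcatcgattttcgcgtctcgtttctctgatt

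The only core in these 300 bases, TGCGGT, began 74 bp downstream of the summit, at chrV:1151569-1151574. The word AATGCG, or CGCATT on the other strand, occurred 3 times in the 101 bases centred on the summit. That word was picked after the sequence was seen. It was in the same window at 7.44% of the 1923 nuclear IDR summits, and 1 summit, that of cmd-1, held it 3 times. The G+C content of the window was 58.4%, against a median of 49.5% at all nuclear IDR summits.

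Sequences at other summits are shown for the 101 bases centred on each, along the strand of the gene, to set the peak with the core, at sca-1, beside peaks without it. Capitals mark the core on either strand or the word GAGAGA on either strand. They lie at chrIII:10818450-10818550, chrIV:1824187-1824287, chrIV:10503847-10503947 and chrV:11375215-11375315.
sca-1 upstream peak: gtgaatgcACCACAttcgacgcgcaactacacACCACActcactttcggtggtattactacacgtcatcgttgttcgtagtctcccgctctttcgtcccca
cmk-1 start peak: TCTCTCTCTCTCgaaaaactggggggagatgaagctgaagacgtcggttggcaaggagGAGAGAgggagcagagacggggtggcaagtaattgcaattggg
tax-6 upstream peak: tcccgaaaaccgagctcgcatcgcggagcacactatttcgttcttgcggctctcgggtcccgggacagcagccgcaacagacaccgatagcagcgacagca
cnb-1 start peak: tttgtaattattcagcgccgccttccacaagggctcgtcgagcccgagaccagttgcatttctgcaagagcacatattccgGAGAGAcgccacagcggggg

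Of the 8 genes, 6 had an IDR summit between 6 kb upstream and the gene end, against 16.3% of all protein-coding genes. The searched spans of the 8 genes were longer, with a median of 15250 bp against 8027 bp over all genes. Per length, the 8 spans held 5.62 IDR summits in 100 kb, against 2.07 over the spans of all protein-coding genes and 1.92 over nuclear sequence. In all 8 IDR summits were found, with a median signal of 117: a pair each at cmd-1 and tax-6, 1 each at cmk-1, cnb-1, unc-43 and sca-1, and 0 at ckk-1 and itr-1. Only cmk-1 and cnb-1 had one in a start window, reaching 1000 bp upstream and 200 bp downstream of each annotated start, against 6.76% of all protein-coding genes. The share at starts is thus set by 2 genes, and most summits of the group lay farther out.

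**Figure D1:**
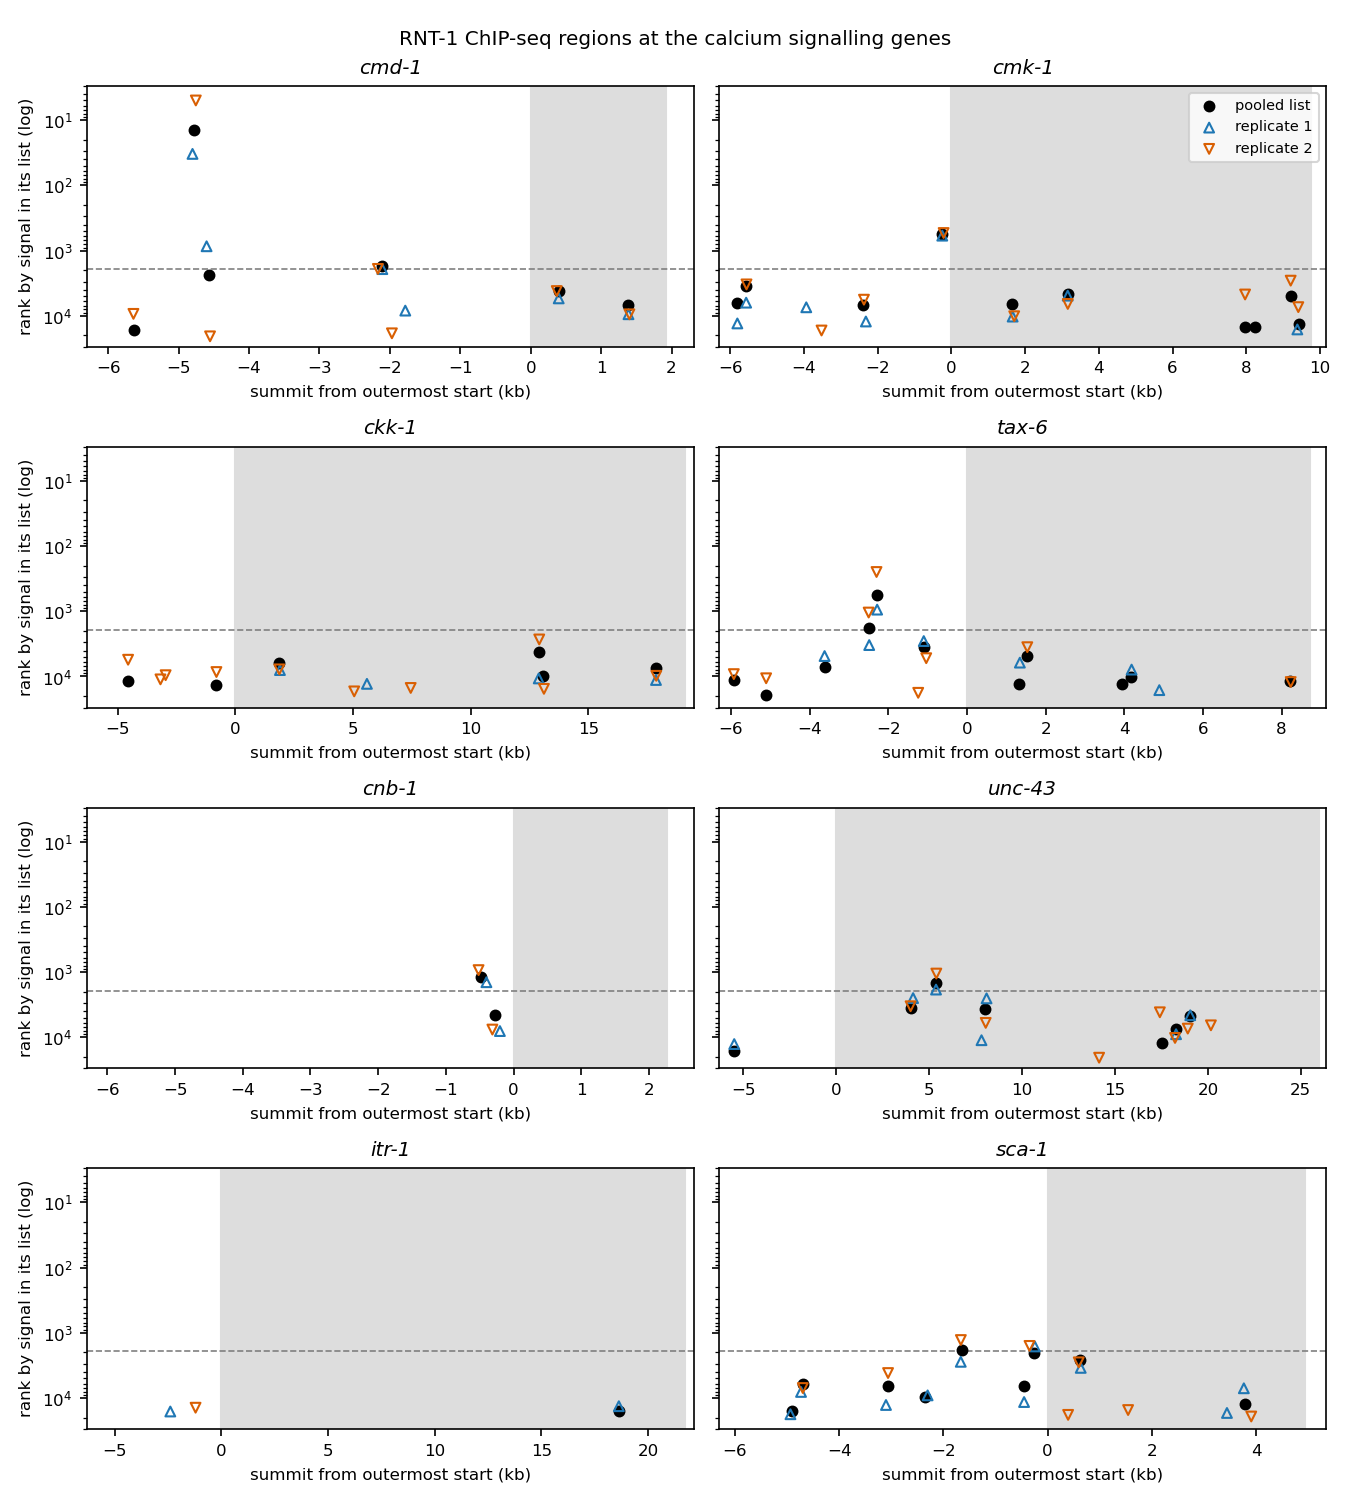
Rank of every region by signal within its list (log axis, strongest at the top) against the distance of its summit from the outermost start of each gene, in kb. Filled circles are the pooled list, upward triangles replicate 1 and downward triangles replicate 2, grey marks the gene body, and the dashed line is rank 1931, the lowest IDR peak in the pooled list. The cmd-1 region at 4776 bp upstream is rank 14 in the pooled list, and itr-1 and ckk-1 have no region above the line.

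Calmodulin itself is encoded at chrV:1156271-1158189, where cmd-1 runs on the plus strand. The distal peak had a signal of 253 in replicate 1, rank 33, and of 272 in replicate 2, rank 5. Its summits in the replicates lay 47 bp apart, 4803 bp and 4756 bp upstream of the start. Both replicates thus placed it among their strongest regions.

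The same interval held a weaker summit in the pooled list, 4572 bp upstream, with a signal of 85.3 and rank 2385. Replicate 1 listed that summit at 88 and rank 861, whereas the nearest region of replicate 2 had 11.9 and rank 20703, close to the bottom of its list. The shoulder was therefore strong in replicate 1 alone. A further IDR peak, at chrV:1153943-1154378, lay 2110 bp upstream of cmd-1 with a signal of 102, rank 1699. It ranked 1929 in replicate 1, with a signal of 59.4, and 1914 in replicate 2, with 39.2. The cmd-1 start itself had a single pooled region below the IDR limit, with a signal of 61 and rank 4237, whose summit lay 28 bp upstream of the inner start. Its ranks were 5422 in replicate 1 and 4183 in replicate 2.

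The distal peak lay inside linc-128, a long intergenic non-coding RNA gene annotated at chrV:1150906-1153207 on the same strand as cmd-1. Its summit fell in the single exon of linc-128, 589 bp downstream of the start of that gene. The nearest protein-coding gene on the other side, cutl-22, ended 4994 bp away. Whether the peak belongs to linc-128 or to cmd-1 cannot be told from its position. The next comparison took summits at distances like that of the cmd-1 peak, already known to be high, so its order is description only. Among the 126 nuclear IDR summits that lie outside start windows and 3000 to 6000 bp upstream of their nearest protein-coding start, the cmd-1 peak had the highest signal, and the median was 129. The next were those upstream of pqn-41 with 420, cest-16 with 332 and F15G9.5 with 317. These 3 summits lay in introns, whereas the cmd-1 summit was in no protein-coding gene. That was not particular to cmd-1, since the summits next in signal, with 314, 283, 278 and 278, also lay between protein-coding genes.

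**Figure D2:**
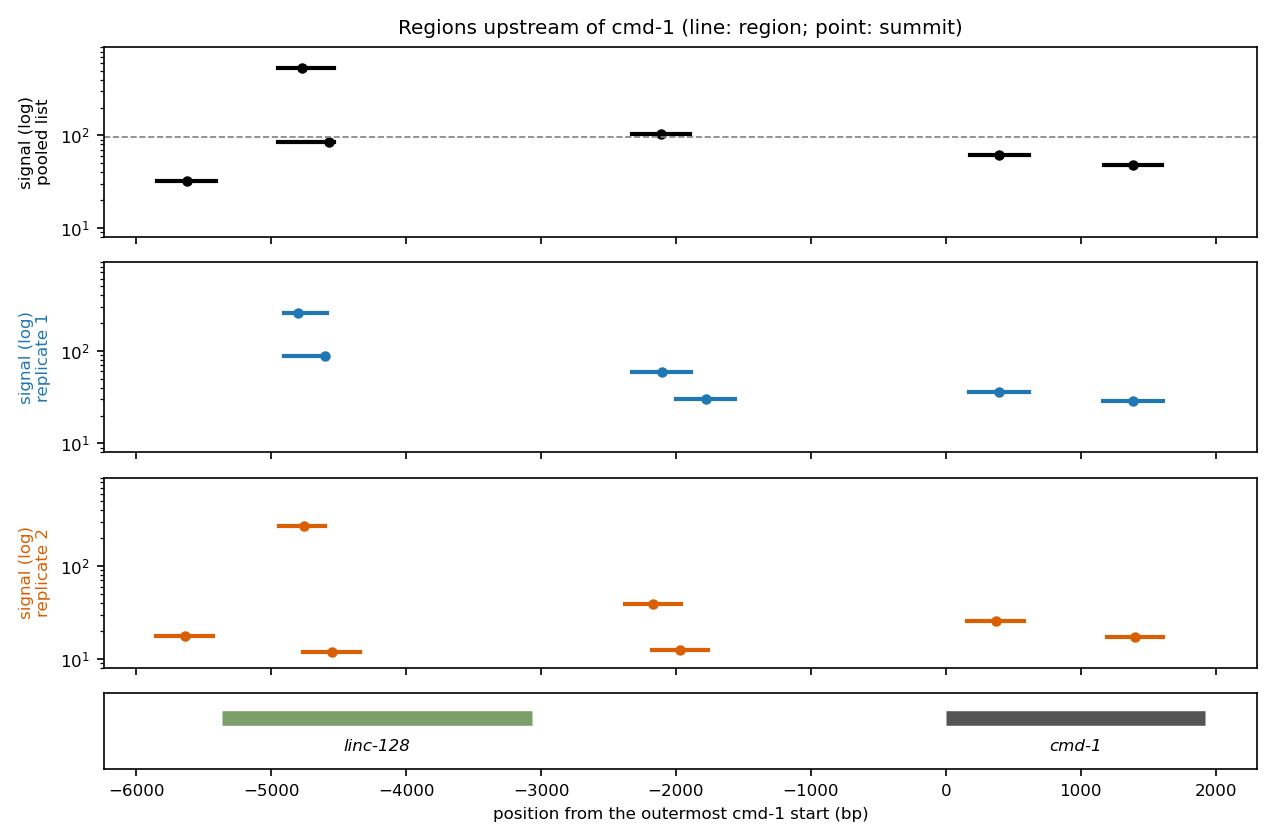
Authors' signal (log axis) of each region upstream of and in cmd-1 against its position from the outermost cmd-1 start in bp, for the pooled list and both replicates, with the extent of linc-128 and cmd-1 at the bottom. Lines are regions, points are summits, and the dashed line is the lowest IDR signal of 95.8. The tallest region, inside linc-128, is present in all 3 lists, at 528, 253 and 272.

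The CaM kinase genes differed from each other. The cmk-1 peak, at chrIV:1824172-1824328, had its summit 244 bp upstream of the only annotated start and a signal of 174, rank 566. Replicate 1 gave 104, rank 592, and replicate 2 gave 71.7, rank 539, so its place was nearly the same in both. The other 9 pooled regions of cmk-1 had signals between 34.1 and 68.6, all below the IDR limit.

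unc-43 spans 25964 bp with 20 annotated starts, the longest of the 8 genes. Its IDR peak, at chrIV:10344638-10345073, lay in an intron, 4100 bp downstream of the preceding cluster of starts and 4289 bp upstream of the next. It had a signal of 111, rank 1476, with 60.4 and rank 1859 in replicate 1 and 53.7 and rank 1056 in replicate 2. The strongest pooled region in a start window of unc-43 had 57.4, rank 4790, at an inner start.

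ckk-1 had 6 pooled regions and none passed the IDR limit. The strongest, with 60.7 and rank 4273, lay in an intron 12891 bp downstream of the outer start and 3173 bp upstream of the inner one. Its start window held a region with a signal of 35.3, rank 13753, that replicate 2 also listed, at rank 8548, and that replicate 1 lacked.

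The calcineurin genes both had IDR peaks, at different places. The cnb-1 summit lay 477 bp upstream of its start, in a peak at chrV:11375047-11375482 with a signal of 123 and rank 1196. Replicate 1 gave 69.9, rank 1434, and replicate 2 gave 57, rank 935. The replicate summits were 116 bp apart, the widest gap of the group, while the median gap over the 1922 nuclear IDR peaks found in both replicates was 24 bp. The start of F55C10.8, a short non-coding RNA gene on the opposite strand, lay 167 bp from this summit, within its own start window as well.

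At tax-6 a pair of overlapping IDR peaks, counted here as separate summits, stood 2297 bp and 2503 bp upstream of the outermost start. They lay at chrIV:10503809-10503917 and chrIV:10503885-10504320. The nearer one had a signal of 173, rank 570, with 85.2 and rank 944 in replicate 1 and 93.6 and rank 250 in replicate 2. The farther one had 99, rank 1818, with ranks of 3300 and 1046. Replicate 2 placed both higher than replicate 1 did. The nearer summit lay 37 bp inside C02F4.10, another short non-coding RNA gene, on the strand of tax-6. No pooled region lay in a start window of tax-6, and the closest upstream, at 1101 bp, had 68 and rank 3505. Inside the gene, regions 785 bp and 993 bp downstream of the nearest start had 36.2 and 56.9.

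The genes of the calcium store were unlike. itr-1 runs over 21757 bp, and its span of 27757 bp held 1 pooled region, with a signal of 33.2 and rank 15625, in a coding exon 18636 bp from the outer start. Replicate 1 also listed that region, at rank 13372, and replicate 2 had none there. Elsewhere in the span, replicate 1 listed a region 2398 bp upstream, at rank 16122, and replicate 2 listed another 1214 bp upstream, at rank 14103. Pooled regions were thus sparser at itr-1 than at the other 7 genes, with 0.036 per kb, a density at which 29.5% of genes lay lower. That percentage is made up almost entirely of the genes with no pooled region at all, also 29.5%.

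sca-1 had the densest span of the 8, with 9 pooled regions or 0.822 per kb, a density above that of 99.5% of genes. Its IDR peak, at chrIII:10818282-10818717, had its summit 1650 bp upstream of the outermost start and a signal of 99.1, rank 1814. Replicate 1 gave 49, rank 2789, and replicate 2 gave 48.5, rank 1293, with summits 2 bp apart. A region 255 bp upstream of the start had 93.5 and rank 2012, just outside the IDR list. Replicate 1 had a summit 245 bp upstream, with a signal of 65.4 and rank 1621. That of replicate 2 lay 347 bp upstream, with 43.5 and rank 1591, between this pooled summit and a weaker one 454 bp upstream. Each replicate thus held a region at the sca-1 start among its 1931 strongest, while the pooled list did not. A further region, 320 bp upstream of the inner start, had 80.4 and rank 2629.

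The sca-1 IDR summit lay in the intron of linc-129, a long intergenic RNA gene at chrIII:10817263-10821245 on the opposite strand, whose start is 413 bp from that of sca-1. Together with the cmd-1 peak, 2 of the 8 IDR summits of the group were inside such genes, compared with 10 of 1923 nuclear IDR summits, or 0.52%, which count those 2. With all non-coding genes other than piRNA genes, the counts were 3 of 8 and 331 of 1923, or 17.2%. By protein-coding genes alone, 5 of the 8 lay between genes, 2 at starts and 1 in an intron, while 55.2% of all nuclear IDR summits were at starts, 26.8% between genes and 16.5% in introns. These shares describe where the peaks lay and were not tested, since the genes were chosen with the peaks known.

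The 8 peaks all stood higher in the list of replicate 2, by amounts that differed between peaks. Of the 8, 6 were among the 1931 strongest regions of both replicates, and 72.2% of the 1922 nuclear IDR peaks found in both were. The exceptions were the farther tax-6 peak and the sca-1 peak, at ranks 3300 and 2789 in replicate 1. All 8 had a smaller rank number in replicate 2, against 49.2% of those 1922 peaks, although the ranks of the cmd-1 peak at 2110 bp, 1929 and 1914, were nearly equal. The lists differ in length and in the scale of the signal, so no mean was taken over the replicates.

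**Figure D3:**
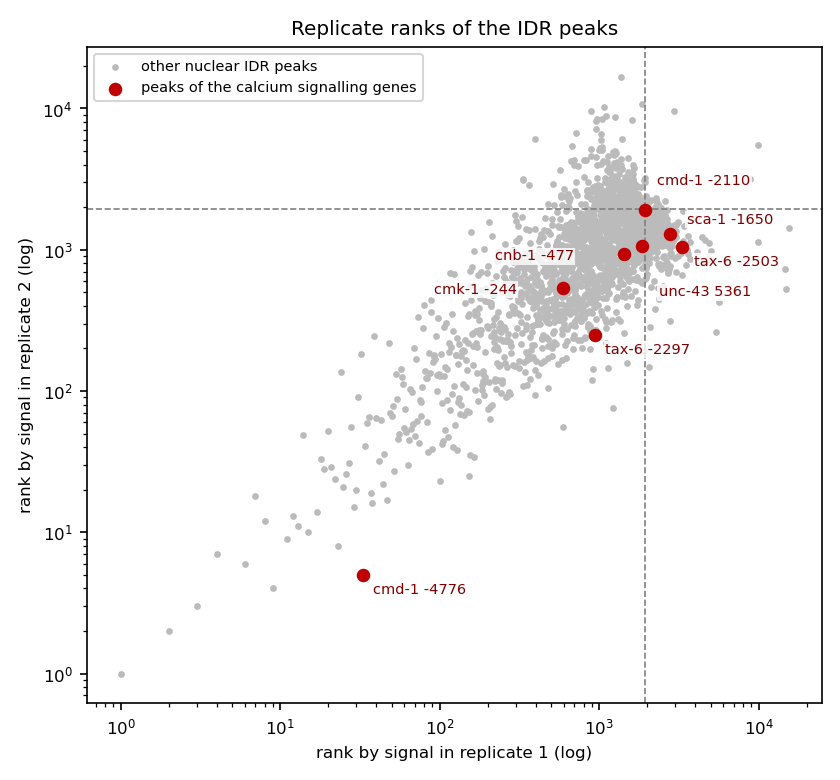
Rank by signal in replicate 1 against rank in replicate 2 (log axes) for the nuclear IDR peaks found in both, in grey, with the 8 peaks of the calcium signalling genes in red, labelled by gene and by the distance of the summit from the outermost start in bp (negative is upstream). Dashed lines are rank 1931. The cmd-1 distal peak is at rank 33 and 5, and the sca-1 peak and the farther tax-6 peak lie to the right of the vertical line.

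Words at the summits were searched on both strands in the 101 bases centred on each. The core was found at 1 of the 8, that of sca-1, against 14.8% of nuclear IDR summits and 5.1% of windows of the same length centred on the outermost starts of all protein-coding genes. At sca-1, TGTGGT occurred as its reverse complement, ACCACA, at 2 places, starting 42 bp and 18 bp upstream of the pooled summit. The second of these overlapped the summit itself in both replicates. At the cmd-1 peak at 2110 bp, ACCACA began 6 bp downstream of the replicate 2 summit, outside the pooled window. GAGAGA, which earlier results showed to be frequent at summits of this list, was at 3 of the 8. They were those of cmk-1, cnb-1 and the cmd-1 peak at 2110 bp, against 29.7% of nuclear IDR summits and 7.34% of gene starts. At that cmd-1 peak, GAGAGA was not within 50 bp of the replicate 2 summit. ACGCAG was at none of the 8, against 14.2% of summits and 2.19% of starts. Its reverse complement, CTGCGT, began 17 bp downstream of the replicate 1 summit of cnb-1, outside the pooled window. Matches of different words can share at most 1 base, while matches of GAGAGA can overlap each other, and a summit was counted once for each word. With 100 bp on each side, the core was at 3, both cmd-1 peaks and sca-1, against 22.7% of nuclear IDR summits. The absence of a word says only that its letters are not in the window.

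A wider list of 87 symbols, put together with earlier results of these data known, gave the surroundings of the 8 genes, and 85 were found as protein-coding genes. Of these 85, 9 had an IDR summit at a start, 10.6% against 6.76% of all protein-coding genes, and 27 had one from 6 kb upstream to the end, 31.8% against 16.3%. For some of the 27, the strongest summit of the span lay in the start window of another protein-coding gene. Without the 8 genes, the counts were 7 of 77, 9.09%, and 21 of 77, 27.3%. Their median span was 12422 bp, again longer than that of all genes. In the pooled list as a whole, IDR peaks included, 6 of the 8 genes and 35 of the other 77 had a region in a start window, against 31.5% of all protein-coding genes. The strongest such region had a median signal of 49.7 among the other genes that had one and 50.2 over all protein-coding genes that had one.

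By role, store release and refilling had 4 of 19 genes with an IDR summit at a start, against 6.76% of all protein-coding genes. They were crt-1, the calreticulin gene of the endoplasmic reticulum, with 156, cnx-1, the calnexin gene, with 153, jph-1, encoding the junctophilin that ties that membrane to the cell surface, with 117, and micu-1, a regulator of mitochondrial calcium uptake, with 105 at a start window shared with Y67H2A.2. The ryanodine receptor gene unc-68 had a peak of 120 at 1450 bp upstream, outside the window. Plasma membrane channels had 1 of 15 at a start, 6.67% and so at the share of all genes. Within the wider span they had 7 of 15, against 16.3%, but their median span was 16652 bp, against 8027 bp over all genes. Some of these summits lay in start windows of other genes. The 7 included egl-19, the L-type calcium channel gene, with 147 at 3360 bp upstream, and ccb-1, a channel beta subunit gene, with 148 at 1089 bp upstream. The peak of unc-2, a neuronal calcium channel gene, had 190 and lay in an intron, 12480 bp from its nearest own start. The start peak was that of unc-36, an alpha2delta subunit gene, with 107.

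Plasma membrane pumps and exchangers had 0 of 13 within the wider span, against 16.3% of all protein-coding genes. A pooled region at a start was present at 4 of 13, 30.8% against 31.5% of all genes, led by mca-2, a calcium ATPase gene, with 85.6. Other calcium sensors and binding proteins had 2 of 18 at a start, 11.1% against 6.76% of all genes. They were the muscle troponin C gene pat-10, with 194 at a start it shares with C46H11.6, and calu-1, the calumenin gene, with 119. Calmodulin and its relatives had 0 of 8 at a start, against 6.76%, and 3 of 8 in the wider span, against 16.3%. Of the relatives, cal-1 had 239 at 1708 bp upstream. The peak of 291 at 2841 bp upstream of cal-7 lay in the start window of drap-1, and that of 186 at 1408 bp upstream of plc-2, a phospholipase C gene, in that of Y75B12B.11. jph-1, micu-1, unc-68, unc-36, mca-2 and calu-1 were named after their values were seen.

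**Figure D4:**
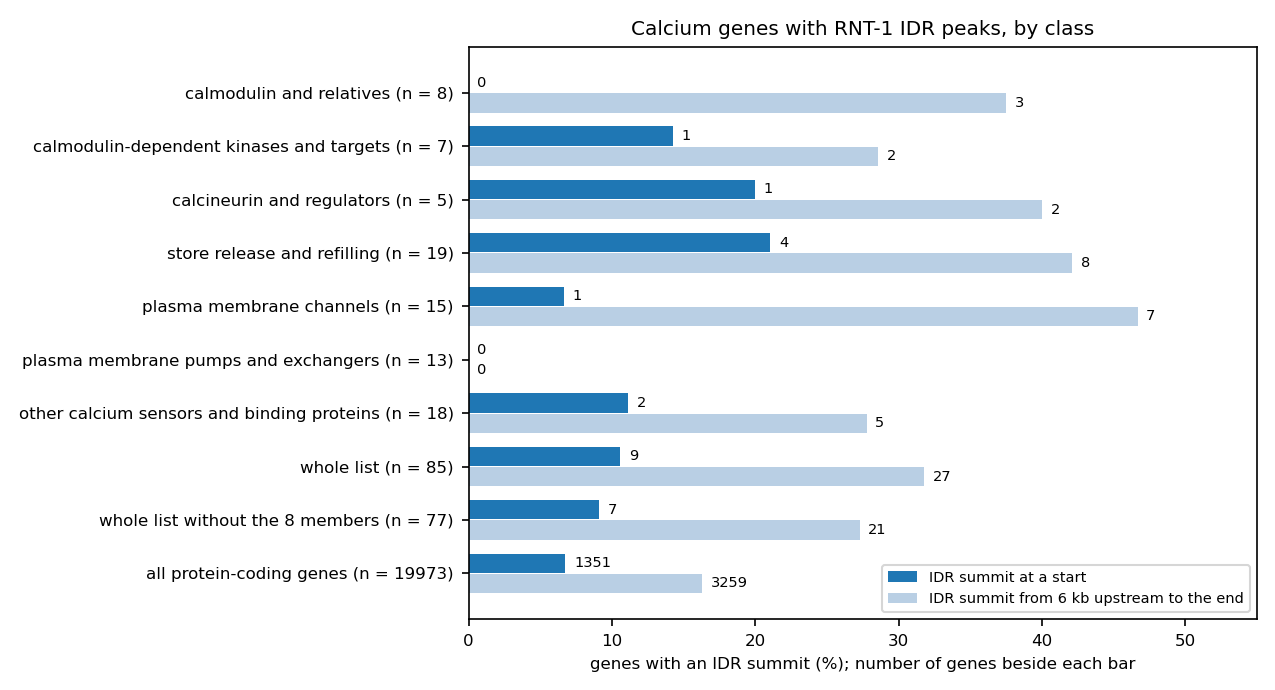
Share of genes (%) with an IDR summit at a start (dark) and from 6 kb upstream to the gene end (light), for each class of the calcium list, for the whole list with and without the 8 genes and for all protein-coding genes, with the number of genes beside each bar. Channels reach 7 of 15 in the wider span with 1 at a start, and pumps and exchangers have 0 in both.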

How the data were processed

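Transcription factor ChIP-seq of 2 biological replicates was analysed from deposited narrowPeak region lists. Per the file descriptions deposited with the samples, there is 1 list per replicate and 1 pooled list, all with background regions kept, and 1 IDR list, each on ce10 and ce11. The labels give rnt-1 as the antibody in one field and anti-GFP in the sample description, which was followed. How reads were aligned, which program called peaks and where IDR was cut were not given in the sources used here. Each region's signal, deposited by the authors, is a score whose scale is unstated, and only ranks inside a list rest on it. The authors' summit offset gave the summit. Depth is unknown, so no interval that needs it is given.

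Regions were assigned by summit to genes of Ensembl release 115 (WBcel235) with Python 3.11.15. Every ce11 region fitted within the chromosome lengths of the RefSeq assembly of that name, from which all sequences were read, and a start codon read there was ATG for all 8 genes. An IDR peak was tied to the replicate region that overlapped it by at least 1 bp and had the nearest summit. The counting was tested on planted summits and words. The genes, the lists and the rules were chosen with earlier results of these data known. Named genes are the 8, genes beside their peaks, the first 12 calcium list genes by IDR signal, the 8 included, and the 3 most like cmd-1 by the rule given with them. A further 6 calcium list genes, marked where they appear, were named outside this rule. With 1 group and no contrast, no test was run. Alternatives were other windows, list lengths, single replicates and overlap in place of summits.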

Additional observations from a re-analysis of the deposited data

How the results depend on the processing

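With 1 kb in place of 6 kb upstream, 3 of the 8 genes had an IDR summit in the span, with 3 summits in all, and 14 of the 85 calcium list genes had one; all genes then gave 8.09%. Among the 965 strongest IDR peaks, 3 of the 8 genes had one in the span, again with 3 summits in all, and 1 at a start, and the calcium list had 13 and 4; all genes gave 9.04% and 3.71%. With each peak given to its nearest protein-coding start, the 8 genes had 6 and the calcium list 22, and all genes 8.35%. A start window of 2000 bp to 500 bp gave the calcium list 15 and all genes 9.17%. The core was at 3 member summits within 100 bp. Without 1 replicate, it was at 1 to 2, and the count of the 8 genes with a start peak was 3 in either case, through sca-1, with all genes at 6.64%. As many top pooled ce11 regions as the ce10 IDR list has, 2450, a choice made after seeing the data, also gave 3, with all genes at 8.2%. The remaining settings kept every count within 1.5 times. The ce10 lists were compared by counts alone. No paired analysis was possible because there is 1 group. Depth is unknown, so what it limits cannot be stated.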
